A study of Mus musculus with 6 samples.

Results

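The fibroblast growth factor (FGF) receptor genes Fgfr1, Fgfr2, Fgfr3, Fgfr4 and Fgfrl1 were followed across 6 RNA libraries from cultured spermatogonial stem cells of adult mice, the cells that sustain sperm production in the testis. They were chosen by gene symbol, not by any measured value, and are 5 of the 41053 gene names in the counted annotation. All 5 passed the filter on low counts and were among the 15263 genes tested. The study compared 3 wild-type lines with 3 lines labelled Ephb2-KO, to ask what loss of the Eph receptor tyrosine kinase Ephb2 does to these stem cells in culture. Every line goes back to cells electroporated with a plasmid that expresses a green fluorescent protein reporter, either alone or together with an Ephb2 guide RNA. Fluorescent cells were sorted and subcloned, and all cells were grown in a StemPro-34 medium with supplements and growth factors that the labels do not list. In both groups replicates 1 and 2 were at passage 20 and replicate 3 was at passage 18. Each line gave 1 library of polyadenylated RNA. The libraries are called WT1 to WT3 and KO1 to KO3 below, where KO stands for the label Ephb2-KO. The labels do not say which lines share a parent culture, so p-values measure the spread between these lines.

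FGFs are secreted or intracrine ligands, and the secreted ones act through receptors that pair on the cell surface with the help of heparan sulfate. Fgfr1, Fgfr2, Fgfr3 and Fgfr4 encode receptor tyrosine kinases, which signal through the docking protein FRS2 to the RAS-ERK and PI3K-AKT pathways. Fgfrl1 encodes a receptor that binds FGFs and lacks the tyrosine kinase domain. Alternative splicing of an exon in the ligand-binding region gives Fgfr1, Fgfr2 and Fgfr3 an epithelial and a mesenchymal form, which counts summed per gene do not tell apart. In spermatogonial stem cell culture, FGF2 and the Ret ligand GDNF are widely used growth factors, and Etv5 and Bcl6b are known targets of this signalling.

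Total counts were between 21772404 and 34047758 per library, so 3 counts corresponded to 0.0803 to 0.147 CPM, a count relative to the scaled library total. The transcript of the targeted gene, Ephb2, was lower in the KO than in the same-numbered wild-type library only in replicate 2. It stood at 21.3 CPM in WT1, 27.1 in WT2 and 10.8 in WT3, against 37.1 in KO1, 16.5 in KO2 and 13.4 in KO3. Counts over exons cannot show a small change in the sequence of a gene, so these values do not tell whether Ephb2 was disrupted. The groups are named by their labels. Germ cell markers (12 genes) summed to between 1809 and 3461 CPM per library, and Ddx4, the germ cell RNA helicase, stood at 83.7 to 290 CPM. Fibroblast and stromal markers (16 genes, none at 0) summed to 4038 CPM in WT1, 6407 in WT2, 20936 in WT3, 6386 in KO1, 7899 in KO2 and 25613 in KO3, so the replicate 3 library was far the highest in each group. Sertoli cell markers summed to at most 97.0 CPM. Among them Sox9 stood at 16.5 to 41.8 CPM, Wt1 at 16.1 to 37.3 and Gata4 at 9.08 to 19.3, with Fshr at 0 counts in all 6 libraries. Leydig cell markers summed to at most 2.12 CPM with Hsd3b1 and Lhcgr at 0. Endothelial, macrophage and peritubular myoid markers summed to at most 56.4, 29.7 and 68.9 CPM. In bulk RNA, fewer cells of a type and less RNA per cell cannot be told apart.

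Fgfr1 and Fgfrl1 were the abundant FGF receptor transcripts, Fgfr2 stood well below them, and Fgfr3 and Fgfr4 were low. Levels of different genes are given as CPM per kilobase of annotated exon. Fgfr1 (GRCm38 chromosome 8, 25513654 to 25575714, plus strand, 8120 exon bases) stood at 21.3 ± 4.53 CPM per kilobase in wild-type libraries and 25.5 ± 1.61 in KO libraries (SD, n = 3). Fgfrl1 (chromosome 5, 108694229 to 108706950, plus strand, 2656 exon bases) stood at 16.1 ± 2.87 and 15.6 ± 1.28 CPM per kilobase (SD, n = 3). Fgfr2 (chromosome 7, 130162451 to 133123350, minus strand, 7240 exon bases) stood at 1.65 ± 0.635 and 1.60 ± 0.778 CPM per kilobase (SD, n = 3). Reads in the 314 exon bases that Fgfr2 shares with Ctbp2 on the same strand were assigned to neither gene. These bases still count in its exon length, so its level per length is somewhat understated. The span given for Fgfr2 joins all exons under the gene name. It reaches far upstream of the RefSeq start whose promoter window is given below. Fgfr3 lies on chromosome 5 (33721724 to 33737068, plus strand, 6907 exon bases) and Fgfr4 on chromosome 13 (55152640 to 55168759, plus strand, 3542 exon bases). Over the 6 libraries Fgfr3 ranged from 0.348 to 0.910 and Fgfr4 from 0.0815 to 0.772 CPM per kilobase.

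**Figure D1:**
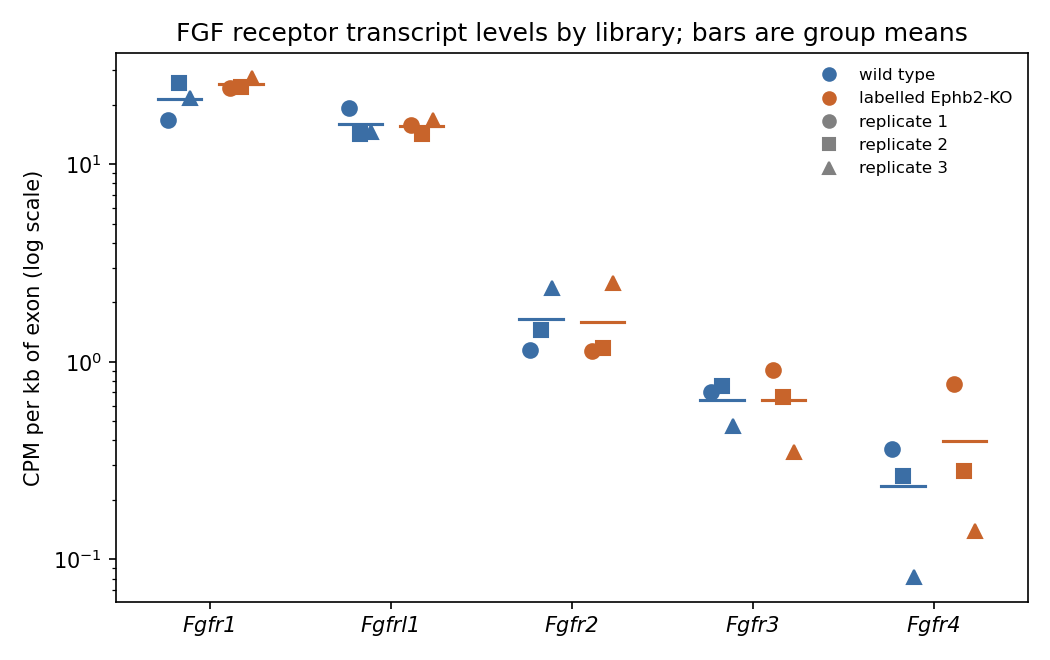
Level of each FGF receptor transcript in CPM per kilobase of exon (log axis), with 1 point per library, colour for the group, symbol for the replicate number and a bar for the group mean (n = 3). Fgfr1 and Fgfrl1 lie between 14.2 and 27.3, above every value of the other receptors, and the triangles of replicate 3 are the highest points for Fgfr2 and the lowest for Fgfr3 and Fgfr4.

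The order of levels per length was Fgfr1, Fgfrl1, Fgfr2, Fgfr3 and Fgfr4, and 3 of its 4 neighbouring steps had the same direction in every library. Fgfr1 exceeded Fgfrl1 by a mean log2 difference of 0.55 (SD 0.39, n = 6) in 5 of 6 libraries, which did not pass an exact two-sided sign-flip test (adjusted p = 0.0625). In WT1 the order was the other way, with Fgfrl1 at 19.4 and Fgfr1 at 16.7 CPM per kilobase. Fgfrl1 exceeded Fgfr2 by 3.35 (SD 0.58), Fgfr2 exceeded Fgfr3 by 1.30 (SD 0.995) and Fgfr3 exceeded Fgfr4 by 1.15 (SD 0.63), each on the log2 scale and in 6 of 6 libraries (exact sign-flip test, adjusted p = 0.0417 for each over the 4 steps). Same-numbered libraries resemble each other, so these p-values describe the 6 libraries. Exon length is that of all annotated transcripts together, and a gene that uses its shorter transcripts is understated by it.

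Fgfr1 made up 43.6% to 60.6% of the summed receptor level per length in a library, and Fgfrl1 33.6% to 50.6%. The shares were 2.62% to 6.05% for Fgfr2, 0.740% to 2.11% for Fgfr3 and 0.209% to 1.79% for Fgfr4. The sum over the 5 receptors was 39.9 ± 2.20 CPM per kilobase in wild-type libraries and 43.7 ± 3.09 in KO libraries (SD, n = 3; exact two-sided permutation test, p = 0.2, where 0.1 is the smallest p that 3 libraries against 3 allow). Fgfr1 outnumbered Fgfr2 per length by 9.12-fold in WT3 and 10.95-fold in KO3 and by 14.5-fold to 21.7-fold in the other 4. Among 22 receptor genes compared per length, namely the 5 FGF receptors and 17 other receptor tyrosine kinases, Fgfr1 ranked 3rd at a mean of 23.4 CPM per kilobase and Fgfrl1 5th at 15.8. The collagen receptor gene Ddr1 (38.3) and the Gas6 receptor gene Axl (37.0) ranked above Fgfr1, and the GDNF receptor gene Ret (19.1) lay between Fgfr1 and Fgfrl1. Fgfr2, Fgfr3 and Fgfr4 ranked 17th to 19th. Fgfr1 stood above 79.4% of all tested genes per length, and Fgfr4 above 7.51%.

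None of the 5 receptors differed between the groups past the threshold. By the edgeR quasi-likelihood test 0 of 5 were called at an adjusted p under 0.05, as were 0% of all tested genes, and 32 genes in all had an unadjusted p under 0.05, none of them an FGF receptor. With the replicate number as a block 0 of 5 were called, against 0.0262% of all tested genes, and 0 of 5 had an unadjusted p under 0.05, against 6.47%. The ranges of the groups were apart for 0 of 5 receptors, against 2.39% of tested genes. Fgfr4 alone was higher in the KO library of 3 of 3 same-numbered pairs, which 15.6% of tested genes were.

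Fgfr1, the most abundant FGF receptor with a kinase in these cultures, stood at 135 CPM in WT1, 209 in WT2 and 175 in WT3, against 199 in KO1, 200.4 in KO2 and 222 in KO3. WT1 was the low library, and the groups overlapped. The means were 173 ± 36.8 and 207 ± 13.0 CPM (SD, n = 3). The log2 fold change of 0.26, SE 0.22, did not pass (edgeR adjusted p = 1.0; exact permutation p = 0.3). Its fold had a 95% interval of 0.842 to 1.70, which narrowed to 0.989 to 1.49 with the replicate block. The blocked edgeR test gave an unadjusted p of 0.0615 and an adjusted p of 0.741. Same-numbered pairs differed by log2 values of 0.55, -0.06 and 0.34.

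Fgfrl1, the receptor without a kinase, was the steadiest of the 5. It stood at 51.4 CPM in WT1, 37.8 in WT2 and 38.7 in WT3, against 41.9 in KO1, 37.8 in KO2 and 44.5 in KO3. The highest value was that of WT1, the library with the lowest Fgfr1. The groups overlapped, with a log2 fold change of -0.04, SE 0.22 (edgeR adjusted p = 1.0; exact permutation p = 0.9), and with the block -0.03 (SE 0.14). The blocked fold had a 95% interval of 0.793 to 1.20.

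Fgfr2, which in its epithelial form is the receptor for Fgf7 and Fgf10, stood at 8.30 CPM in WT1, 10.5 in WT2 and 17.1 in WT3, against 8.17 in KO1, 8.46 in KO2 and 18.1 in KO3. Replicate 3 was the highest of each group, and the groups covered nearly the same range. The log2 fold change was -0.05 (SE 0.46; edgeR adjusted p = 1.0; exact permutation p = 0.9), and with the block -0.08 (SE 0.18, 95% interval of the fold 0.719 to 1.24). Fgfr3, a kinase receptor known as a marker of undifferentiated spermatogonia in the human testis, stood at 4.87 CPM in WT1, 5.21 in WT2 and 3.26 in WT3, against 6.29 in KO1, 4.59 in KO2 and 2.41 in KO3. Here replicate 3 was the lowest of each group. Its log2 fold change was -0.0042 (SE 0.46; edgeR adjusted p = 1.0; exact permutation p = 0.8), and with the block -0.06 (SE 0.26, interval 0.644 to 1.42).

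Fgfr4, the lowest of the receptors, had 48 counts in WT1, 24 in WT2 and 7 in WT3, against 97 in KO1, 22 in KO2 and 10 in KO3. That was 1.29, 0.940 and 0.289 CPM against 2.73, 0.990 and 0.491 CPM. KO1 was the highest library, and the groups overlapped. The log2 fold change of 0.75, SE 0.78, did not pass (edgeR adjusted p = 1.0; exact permutation p = 0.5). The 95% interval of its fold, 0.466 to 6.05, held a 2-fold difference in either direction. With the block it was 0.66 (SE 0.42). Without KO1 the unblocked value was -0.19.

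**Figure D2:**
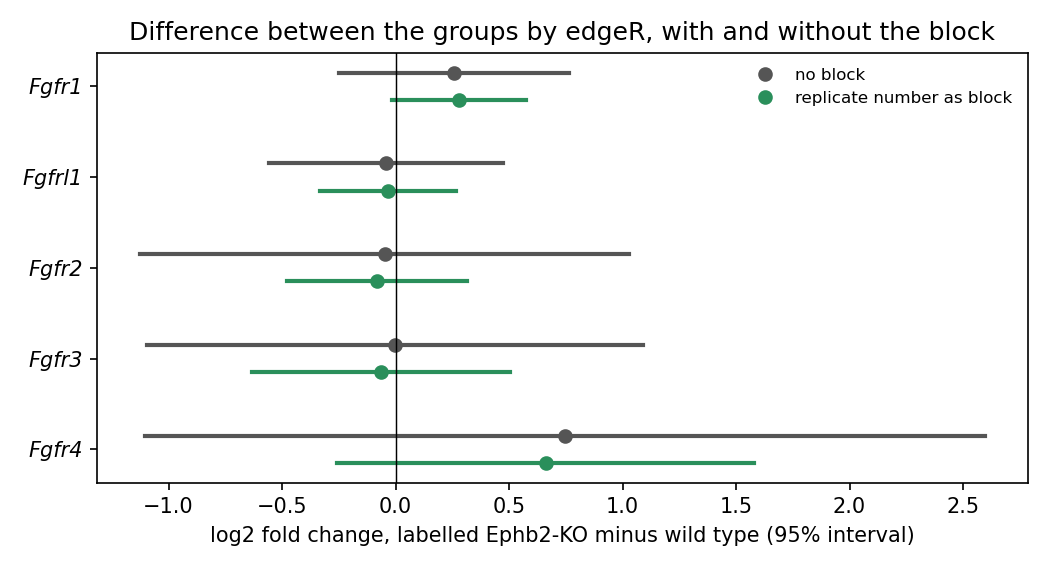
Log2 fold change of each receptor, libraries labelled Ephb2-KO minus wild type, with its 95% interval, from the edgeR fits without a block and with the replicate number as a block (n = 3 per group). All 10 intervals cross 0, and that of Fgfr1 with the block starts closest to it, at a fold of 0.989.

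The replicate number parted the libraries more than the group did, and the low receptors moved with it in different directions. With group in the model, 8276 genes, or 54.2% of those tested, differed by replicate number, and 2 of 5 receptors were among them: Fgfr2 (edgeR F test, adjusted p = 0.00317) and Fgfr4 (adjusted p = 0.0103). Fgfr3 narrowly missed (adjusted p = 0.0527), and Fgfr1 (adjusted p = 0.220) and Fgfrl1 (adjusted p = 0.296) did not pass. Replicate 3 was the sole number at passage 18, so passage cannot be told apart from anything else that the replicate 3 lines share.

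Fgfr2 was higher at passage 18 than at passage 20. Both passage 18 libraries (17.1 and 18.1 CPM) lay above all 4 passage 20 libraries (8.17 to 10.5 CPM), a log2 difference of 0.997 with an SE of 0.18 and a 95% interval of the fold from 1.505 to 2.65 (edgeR adjusted p = 0.00121). Fgfr3 and Fgfr4 were lower at passage 18. Fgfr3 stood at 3.26 and 2.41 CPM there against 4.59 to 6.29 CPM at passage 20, a log2 difference of -0.89 with an SE of 0.29 (adjusted p = 0.0254). Fgfr4 stood at 0.289 and 0.491 CPM against 0.940 to 2.73 CPM, a log2 difference of -1.84 with an SE of 0.49 (adjusted p = 0.0101). The counts behind these Fgfr4 values at passage 18 were 7 and 10. In this contrast 1 of 5 receptors was called higher, against 25.0% of tested genes, and 2 of 5 lower, against 23.0%. Calls were thus about as frequent among the receptors as among all genes. Fgfr1 (0.10, SE 0.14) and Fgfrl1 (-0.01, SE 0.15) did not pass. The calls rested on few libraries. Without KO3 the Fgfr2 difference was 0.88 (adjusted p = 0.0726), that of Fgfr3 -0.63 (adjusted p = 0.339) and that of Fgfr4 -1.91 (adjusted p = 0.0973). Without WT3 the Fgfr3 difference was -1.16 (adjusted p = 0.0908) and that of Fgfr4 -1.77 (adjusted p = 0.109). Without WT2 that of Fgfr3 was -0.84 (adjusted p = 0.0776). Every one of these kept its direction.

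Markers of cell types moved along the same contrast. Of 16 fibroblast and stromal markers, 14 were called higher at passage 18, against 25.0% of tested genes, and 1 lower, against 23.0% (median log2 difference 2.17); the collagen gene Col1a1 stood at 481 CPM in WT1, 864 in WT2 and 1989 in WT3. Of 11 tested germ cell markers, 7 were called lower, against 23.0%, and 0 higher, against 25.0% (median -0.75), among them Gfra1, the GDNF co-receptor gene, at 149 CPM in KO1, 232 in KO2 and 125 in KO3. The part of this in the differences of Fgfr2, Fgfr3 and Fgfr4 was not tested. Between replicates 1 and 2, both at passage 20, 0 of 5 receptors were called higher in replicate 2, against 8.14% of tested genes, and 0 of 5 lower, against 8.35%. The log2 differences there were 0.32 for Fgfr1, 0.20 for Fgfr2, -0.19 for Fgfr3, -0.96 for Fgfr4 and -0.30 for Fgfrl1.

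**Figure D3:**
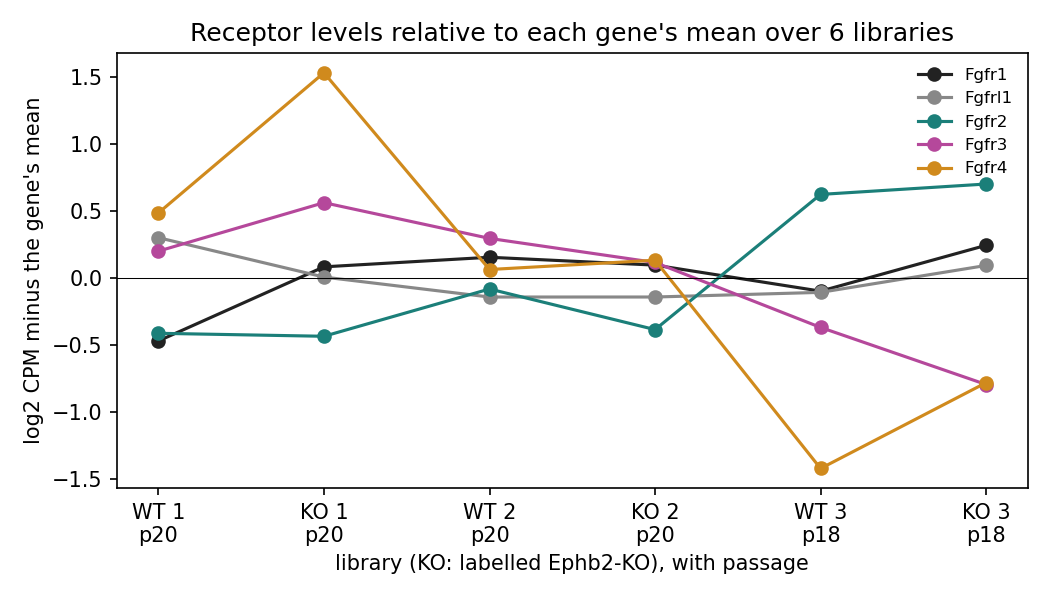
Log2 CPM of each FGF receptor minus its own mean over the 6 libraries (p18 and p20: passage). Fgfr2 (teal) ends above its mean in both passage 18 libraries, Fgfr3 (magenta) and Fgfr4 (orange) end below theirs, and Fgfr1 and Fgfrl1 stay between -0.47 and 0.30.

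The promoter windows of the receptors that differed between passages are shown for reference only. They are RefSeq windows on GRCm38.p6 from 250 bases before to 50 after an annotated start, written 5′ to 3′ on the gene's strand. Capitals mark GGGCGG or its reverse complement CCGCCC, the core of the GC box bound by SP-family factors. The Fgfr2 window is chr7:130266759-130267058 on the minus strand, that of Fgfr3 is chr5:33721474-33721773 on the plus strand, and that of Fgfr4 is chr13:55152568-55152867 on the plus strand.
Fgfr2: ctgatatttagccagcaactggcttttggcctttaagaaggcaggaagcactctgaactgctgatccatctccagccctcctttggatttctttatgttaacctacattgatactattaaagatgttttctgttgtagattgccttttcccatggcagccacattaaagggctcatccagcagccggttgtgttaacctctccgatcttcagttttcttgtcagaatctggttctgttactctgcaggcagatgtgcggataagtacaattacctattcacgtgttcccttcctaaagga
Fgfr3: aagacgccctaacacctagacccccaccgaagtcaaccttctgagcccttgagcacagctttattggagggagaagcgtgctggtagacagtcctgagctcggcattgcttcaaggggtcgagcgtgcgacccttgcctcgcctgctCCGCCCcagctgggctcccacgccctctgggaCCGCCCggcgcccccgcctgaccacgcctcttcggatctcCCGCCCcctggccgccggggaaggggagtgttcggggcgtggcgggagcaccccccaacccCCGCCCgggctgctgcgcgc
Fgfr4: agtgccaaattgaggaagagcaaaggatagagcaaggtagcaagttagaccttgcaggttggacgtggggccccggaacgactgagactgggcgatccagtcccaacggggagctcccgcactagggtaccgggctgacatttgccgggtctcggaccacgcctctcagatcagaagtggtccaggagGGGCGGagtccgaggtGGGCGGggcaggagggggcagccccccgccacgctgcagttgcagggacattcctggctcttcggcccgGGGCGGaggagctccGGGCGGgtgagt
The Fgfr3 and Fgfr4 windows each held 4 GC box cores and had a GC content of 69.7% and 65.3%. The Fgfr2 window held 0 and had a GC content of 43.7%, with 4 CpG dinucleotides against 26 and 20. Among all 32817 promoter windows of this length, 35.6% held GGGCGG on either strand, and the median GC content was 52.7%. The window of Fgfrl1, which did not differ between passages past the threshold, also held 4 GC box cores (GC content 73.7%) and was the 1 of the 4 genes with the ETS core CCGGAAG, found in 8.9% of all windows. A TATAAA motif, found in 13.6% of all windows, was in none of these. A second annotated Fgfr3 start (chr5:33722056-33722355) held 2 GC box cores, which overlap the letters of one another. No window was matched for Fgfr1. A match of letters is a description of the window and not a measured binding site. Whether these windows have any part in the differences between passages was not tested.

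Ligand transcripts stood below Fgfr1 in every library, and a few differed strongly by replicate number. Of 22 FGF genes, 14 passed the filter and 8 did not, among them Fgf6 at 0 counts in all 6 libraries. No ligand was called between the groups, against 0% of all tested genes. By the replicate number F test 6 of 14 were called, against the 54.2% of all tested genes. Fgf7, a ligand of epithelial Fgfr2, stood at 5.89 CPM in WT1, 33.2 in WT2 and 43.4 in WT3, against 7.67 in KO1, 47.1 in KO2 and 48.8 in KO3. Both replicate 1 libraries were the low ones (replicate 2 minus replicate 1: log2 difference 2.56, SE 0.18, edgeR adjusted p = 2.2e-05). Fgf10, another ligand of epithelial Fgfr2, stood at 2.20 CPM in WT1, 4.19 in WT2 and 20.4 in WT3, against 2.73 in KO1, 4.95 in KO2 and 23.7 in KO3, highest in replicate 3 of each group like Fgfr2 itself (passage 18 minus 20: 2.71, SE 0.19, adjusted p = 9.1e-07). Fgf2, the ligand commonly added to such cultures, was at 0.375 to 2.79 CPM and higher in replicate 2 than in replicate 1 by a log2 value of 2.64 (SE 0.45, adjusted p = 0.0040). Fgf8 went with Fgfr3 and Fgfr4 in direction, at 2.06 and 2.41 CPM in the passage 18 libraries against 3.87 to 5.97 CPM at passage 20 (-1.21, SE 0.29, adjusted p = 0.0058). Fgf9, a ligand made by Sertoli cells in the fetal testis, was at 0.470 to 1.42 CPM and did not pass. Markers of cell types also moved between passages, and their part in these ligand differences was not tested.

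Co-receptors of the endocrine FGFs were at or near the floor. Klb, which encodes beta-Klotho, stood at 0.0450 to 0.134 CPM and Kl, which encodes Klotho, at 0.0491 to 0.196 CPM, and neither passed the filter. Of the 8 tested genes for other proteins that bind FGFs or their receptors, 0 were called between the groups, against 0% of tested genes. By replicate number 5 were called, against 54.2%. The neural cell adhesion molecule gene Ncam1 stood at 31.6 and 41.0 CPM at passage 18 against 7.63 to 15.5 CPM at passage 20 (log2 difference 1.69, SE 0.16, adjusted p = 9.4e-06). Flrt3, whose protein binds FGF receptors, was at 1.01 to 2.36 CPM and did not pass. The 22 genes for heparan sulfate proteoglycans and enzymes that build or trim their chains summed to between 2608 and 3487 CPM per library. The syndecan gene Sdc4 alone stood at 1009 to 1718 CPM, and levels of the others ranged widely. Hs3st1 was the lowest, at 0.0268 to 0.405 CPM, and did not pass the filter. Of the 21 genes tested, 0 were called between the groups, against 0% of all tested genes. In 3 of 3 same-numbered pairs 12 were higher in the KO library, against 15.6% of all tested genes. In the edgeR fit with the block 5 had an unadjusted p under 0.05, against 6.47%. In the same pairs 11 of 16 fibroblast and stromal markers were higher in 3 of 3, and the part of this in the heparan sulfate genes was not tested. Sdc3, a syndecan gene, stood at 14.3 CPM in WT1, 18.7 in WT2 and 11.6 in WT3, against 37.5 in KO1, 19.6 in KO2 and 18.5 in KO3, and its log2 fold change of 0.76 (SE 0.37) did not pass.

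Transcripts of proteins that act next to the receptor kinase differed by replicate number in both directions. Calls in each direction were about as frequent among them as among all tested genes. Frs2, which encodes the docking protein of these receptors, stood at 67.0 to 74.0 CPM in all 6 libraries. Grb2, an adaptor gene, stood at 53.4 to 77.5 CPM at passage 20 and at 90.1 and 88.7 CPM at passage 18 (log2 difference 0.52, SE 0.12, adjusted p = 0.0053). Of the 25 genes of this group, all tested, 0 were called between the groups, against 0% of tested genes. By replicate number 17 were called, against 54.2%. At passage 18, 7 were called higher, against 25.0%, and 6 lower, against 23.0%. Pik3r1, a regulatory subunit gene of PI3K, stood at 92.3 and 115 CPM at passage 18 against 32.6 to 51.5 CPM at passage 20 (adjusted p = 6.1e-06), and the adaptor gene Crk was higher there by a log2 difference of 0.93 (SE 0.13). Between replicates 1 and 2, 2 were called higher in replicate 2, against 8.14%, and 2 lower, against 8.35%. Receptor splicing regulators included Esrp1, which promotes the epithelial receptor form: it stood at 68.6 CPM in WT1, 152 in WT2 and 50.2 in WT3, against 77.7 in KO1, 155 in KO2 and 37.0 in KO3. Esrp1 was lower at passage 18 (-1.29, SE 0.15, adjusted p = 6.0e-05), where Fgfr2 was higher. The counts do not tell the receptor forms apart, and the part of cell types in the Esrp1 difference was not tested.

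Feedback inhibitors of FGF signalling differed between the replicate 1 and 2 libraries, in which the receptors did not pass the test. Of 12 such genes, the Sprouty, Spred and MAP kinase phosphatase genes among them, 11 were called higher in replicate 2, against 8.14% of tested genes, and 0 lower, against 8.35%. Their median log2 difference was 1.79. The list is named for FGF, but which upstream signal lay behind this difference was not tested. Spry4 stood at 21.4 CPM in WT1, 116 in WT2 and 8.42 in WT3, against 16.4 in KO1, 97.2 in KO2 and 7.66 in KO3 (replicate 2 minus 1: 2.50, SE 0.16, adjusted p = 1.1e-05). Dusp6, the ERK phosphatase gene, stood at 85.7 CPM in WT1, 280.3 in WT2 and 104 in WT3, against 82.1 in KO1, 273 in KO2 and 93.1 in KO3 (1.72, SE 0.14, adjusted p = 5.5e-05). The replicate 2 library was the highest of its group for Spry4 and for Dusp6. The gene not called was Dusp7 (-0.01, SE 0.25). At passage 18, 8 of the 12 were called lower than at passage 20, against 23.0% of tested genes, and 1 higher, against 25.0%. That gene was Spry2 (0.76, SE 0.13), which stood at 64.8 and 75.3 CPM against 27.1 to 58.8 CPM. The passage 20 side is the mean of replicates 1 and 2, so the high replicate 2 values enter it. Of the genes called lower, Dusp6, Spred1 and Spred2 had means of 98.5, 106 and 32.5 CPM in replicate 3. Their replicate 1 means were lower, at 83.9, 97.0 and 26.6 CPM. Spry1, Spry4, Dusp5, Dusp9 and Il17rd had lower means in replicate 3 than in replicate 1 as well as replicate 2.

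Genes that respond to FGF and ERK signalling gave a like picture with more exceptions. All 14 were called by replicate number, against 54.2% of tested genes. In replicate 2, 8 were called higher than in replicate 1, against 8.14%, and 1 lower, against 8.35% (median log2 difference 0.82). Etv5, a transcription factor gene needed for stem cell maintenance in the testis, stood at 24.7 CPM in WT1, 252 in WT2 and 31.2 in WT3, against 23.3 in KO1, 218 in KO2 and 31.9 in KO3 (3.29, SE 0.15, adjusted p = 1.1e-06). Its relative Etv4 stood at 84.3 CPM in WT2 and 80.7 in KO2 and at 12.3 to 19.5 CPM in the other 4 libraries. The gene called lower was the immediate early gene Ier2 (-1.62, SE 0.15). Egr1, another immediate early gene, stood at 608 and 694 CPM in WT3 and KO3 and at 1055 to 1546 CPM in the other 4 libraries, and did not pass between replicates 1 and 2. Between the groups 0 of 12 feedback genes and 0 of 14 response genes were called, against 0% of all tested genes. These counts therefore do not set the lists apart. The difference between receptors and feedback genes in how they moved was itself not tested. Nor was it tested which ligand or receptor lay behind the differences of the response genes.

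**Figure D4:**
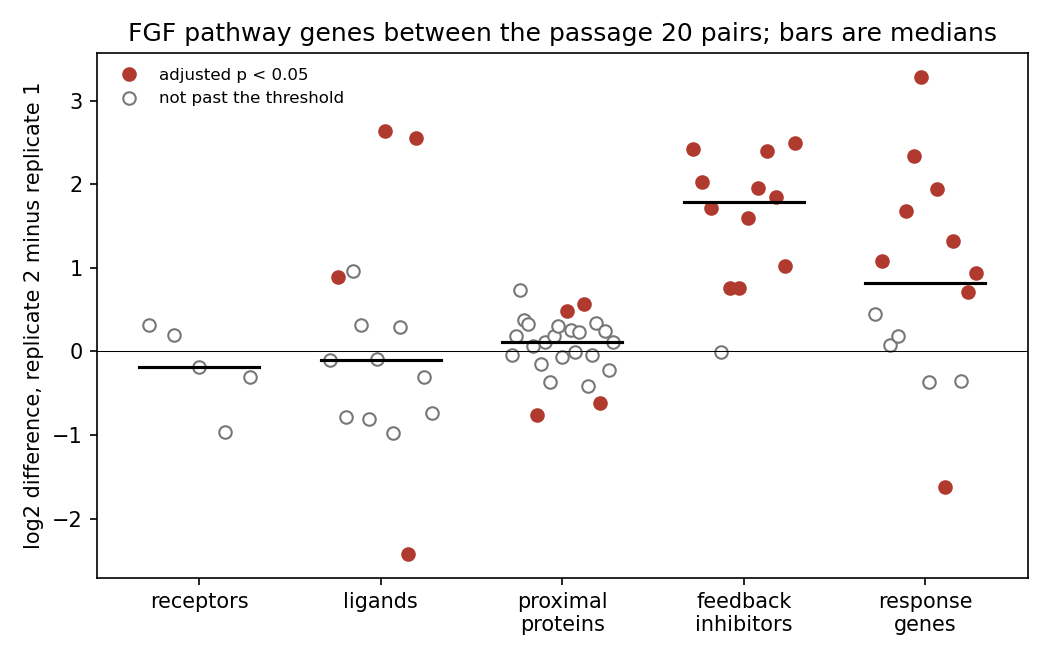
Log2 difference between replicate 2 and replicate 1, both at passage 20, for each tested gene of 5 groups of the FGF pathway, from the edgeR fit with group and replicate number. Filled points have an adjusted p under 0.05 and bars are medians: 0 of 5 receptors and 11 of 12 feedback inhibitors are filled, with medians of -0.19 and 1.79.

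The genes nearest to each receptor in profile were found by the root mean square difference of centred log2 CPM over the 6 libraries, among 11392 genes with a mean of at least 5 CPM. Nearest to Fgfr1 was Neo1, the netrin and RGM receptor gene neogenin (0.0480), followed by Tep1 and Prcp. Nearest to Fgfrl1 were Lin37 (0.0408), Mpp7 and Ciz1. Nearest to Fgfr2 was Sptbn1, a spectrin gene (0.0571), followed by Fnip1 and Gpalpp1; Sptbn1 stood at 159.8 to 209 CPM at passage 20 and at 311 and 368 CPM at passage 18. Nearest to Fgfr3 were Mms22l (0.0768), Nasp and Mns1, of which Nasp encodes a histone chaperone. Nearest to Fgfr4 were Coro2a (0.175), Pax7 (0.233) and Sall1 (0.236). Pax7, a marker of a rare stem spermatogonium, stood at 25.4 CPM in KO1 and at 4.87 to 12.5 CPM elsewhere, with the same high library as Fgfr4. Among the receptors themselves Fgfr1 and Fgfrl1 were nearest (0.36) and Fgfr2 and Fgfr4 farthest apart (1.38). With so many candidates and 6 libraries, close profiles can arise in many ways, and these are a description.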

How the data were processed

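Polyadenylated RNA of 6 cultured lines was sequenced from strand-specific libraries, 3 wild type and 3 labelled Ephb2-KO. The authors deposited unnormalized read counts for each gene, made with featureCounts 1.4.6-p4 per the file headers, with exons joined by gene name (GENCODE vM3, strand setting 2). STAR, FastQC and build GRCm38.p3 are named per the submitters' processing notes; how STAR was run is not given in the sources used here. Reads in exons that overlap on the same strand, and reads mapping to several places, were left out of the counts. Summed exon length per gene comes from the same deposited files.

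Tests were run with edgeR 4.0.16 (R 4.3.3): filterByExpr kept 15263 of 41053 genes, TMM scaled the libraries, and robust glmQLFit with glmQLFTest compared the groups without a covariate. A second fit with group and replicate number gave the F test of the number and the contrasts of replicate 3 (passage 18) against the mean of 1 and 2 (passage 20) and of 2 against 1. P-values were adjusted by Benjamini-Hochberg over all tested genes, with a threshold of 0.05. CPM are relative to TMM-scaled totals, and log2 CPM add a prior count of 2. Neighbouring receptors were compared on log2 of (CPM + 0.1) per kilobase. Each SE is the log2 value over the root of its F statistic. DESeq2 1.42.0, other filters and scalings, and leaving out each library were alternatives. The scripts were tested on simulated data. Figures were drawn with matplotlib 3.10.9.

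The replicate numbers pair the libraries: deviations of same-numbered libraries from their group means correlated over genes at 0.596, 0.736 and 0.850. Those of differently numbered libraries correlated at -0.631 to 0.0790. Deviations within a group are tied by their shared mean, so these values are not independent. The replicate number comes from the sample titles. Without the block edgeR's biological coefficient of variation was 0.440, and with it 0.166. Total counts of over 21772404 per library set the precision, which is lowest for Fgfr4. Intervals and floors cover the errors named beside them only.

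The members, lists and tests were chosen with earlier results of these data known. All members are given in every library. From the other lists the genes with the smallest p for replicate number or group were named, beside a fixed set (Fgf2, Fgf8, Fgf9, Klb, Flrt3, Frs2, Grb2, Spry2, Spry4, Dusp6, Etv4, Etv5, Egr1, Esrp1, Ret, Kit, Ephb2, Gfra1, Ddx4, Col1a1, Pdgfra); Fgf6, Kl and markers at 0 were chosen after their values were seen. Sox9, Wt1 and Gata4 were likewise named after their values were seen. For each receptor the 3 genes nearest in profile were named. Promoter windows come from RefSeq (GRCm38.p6), where 4 of the 5 members were matched by symbol.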

Additional observations from a re-analysis of the deposited data

Results flagged for a closer look

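Fgfr2 went in opposite directions in the replicate pairs of the 2 passages. At passage 18 (replicate 3) it was higher in the library labelled Ephb2-KO, by a log2 value of 0.078. At passage 20 it was lower in that group, by -0.02 in replicate 1 and -0.30 in replicate 2. With 1 pair at passage 18 this difference was not tested, and the values are small beside the SE of the comparison (0.18 with the replicate block).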

How the results depend on the processing

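The count of receptors called between the groups was 0 under every alternative run. Of the 4 neighbouring steps in level per length, 3 had the same direction in every library, and 4 without WT1 and without division by length. With 5 libraries the exact sign-flip test cannot go below 0.0625. Over all genes, 0 were called between the groups by edgeR, 4 with the replicate block, 4 by DESeq2 and 18 by DESeq2 with the block. Leaving out libraries gave 0 to 56, the highest without the replicate 1 libraries in the blocked fit. Genes called by replicate number, 8276, ranged from 4442 to 10084 when single libraries were left out, and the 2 receptors called ranged from 0 without KO3 to 4 without KO1, with 1 without WT3. It was 3 without the low-count filter or the group term. Fgfr4 was not tested with a filter of 5 CPM. Between the groups the sign was not settled for the receptors near 0. Fgfr3 turned to 0.0034 by DESeq2, 0.00090 with RLE size factors and 0.012 without the filter, and ran from -0.35 to 0.29 with a library left out. With single libraries left out Fgfr2 ran from -0.52 to 0.31, Fgfr4 from -0.19 to 1.20 and Fgfrl1 from -0.12 to 0.11. Between passages Fgfr1 ran from -0.027 to 0.23 and Fgfrl1 from -0.19 to 0.17. With the block and the libraries of 1 number left out, Fgfrl1 was 0.10 without number 1, Fgfr2 0.029 without number 2 and Fgfr3 0.10 without number 3. The cause of these shifts was not tested, beyond that fewer libraries enter the fit. Depth limits Fgfr4 most, with as few as 7 counts in a library.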

Other observations

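Of 17 other receptor tyrosine kinase genes tested, 0 were called between the groups, against 0% of all tested genes. By replicate number 12 were called, against 54.2%. At passage 18, 5 were called higher than at passage 20, against 25.0%, and 7 lower, against 23.0%. The platelet-derived growth factor receptor gene Pdgfra, itself one of the fibroblast and stromal markers, stood at 165 and 212 CPM at passage 18 against 29.0 to 44.7 CPM at passage 20 (log2 difference 2.34, SE 0.12, adjusted p = 1.3e-07). The collagen receptor gene Ddr2 and the epidermal growth factor receptor gene Egfr were higher at passage 18 too, by 1.91 (SE 0.11) and 1.95 (SE 0.12). In the other direction Ret stood at 72.9 and 77.8 CPM at passage 18 against 136 to 209.9 CPM at passage 20 (-1.18, SE 0.14, adjusted p = 5.6e-05), and the stem cell factor receptor gene Kit at 22.7 and 21.6 CPM against 50.5 to 93.9 CPM (-1.73, SE 0.23, adjusted p = 0.00033). Insr, the insulin receptor gene, did not pass (0.03, SE 0.17).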
